A study of Mus musculus with 16 samples.

Results

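Enteroendocrine cells are the hormone-secreting cells of the gut epithelium, and the 10 genes described here are their lineage and hormone genes in mouse jejunal enteroids. Neurog3 and Neurod1 are transcription factors of the lineage. Chga and Chgb encode granule proteins, Tph1 encodes the enzyme of serotonin synthesis, and Cck, Gcg, Gip, Sct and Sst encode peptide hormones. They were chosen by gene symbol, with no measured value in the rule, as 10 of the 54532 genes counted. The study asked how loss of the motor protein MYO5B alters the intestinal epithelium and whether an agonist of the lysophosphatidic acid receptor LPAR5, Compound-1, changes that state. MYO5B moves apical recycling endosomes, which carry membrane proteins to the brush border.

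RNA was sequenced from 16 cultures in 4 groups of 4, and the study's legend counts 4 mice for each group. Enteroids are jejunal epithelial cultures grown from crypts, here passaged before induction and then kept for 2 days in a medium for differentiation without added Wnt ligands or EGF. MYO5BΔIEC cultures (Vil-CreERT2;Myo5b-flox/flox) received 1 µM 4-OH-tamoxifen for 24 h, which activates a Cre recombinase driven by the villin promoter of the intestinal epithelium, and then vehicle (PBS). MYO5B(G519R) cultures (Vil-CreERT2;Myo5b-flox/G519R) carried a floxed and a point-mutant allele and received the same tamoxifen induction. The Compound-1 group was MYO5BΔIEC treated with 100 nM of the compound during the 2 days of differentiation. For controls, the labels give genotype "Control" and no treatment, the methods give uninduced flox/flox cultures with ethanol, and the legend gives healthy littermates. Tamoxifen exposure and MYO5B loss therefore cannot be told apart in the comparisons with control, and whether vehicle and Compound-1 cultures came from the same mice is not given in the sources used here.

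In normal gut, NEUROG3 starts the enteroendocrine program in a secretory progenitor and NEUROD1 acts after it as the cells mature. The mature cells store peptides and amines in dense-core granules, of which chromogranins A and B are major proteins, and release them on nutrient signals. Single hormones have long been used to name subtypes, such as K cells for GIP and L cells for proglucagon, although single cells may hold several hormones.

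The targeted gene, Myo5b, was read first as a check of the labels. Its level was 160, 230, 191 and 176 CPM (read counts scaled to library size) in the controls, 135, 109, 170 and 101 CPM in MYO5BΔIEC, 139, 153, 173 and 136 CPM in MYO5B(G519R), and 149, 106, 87.2 and 101 CPM with Compound-1. Myo5b was lower than control by a log2 fold change of -0.55 in MYO5BΔIEC (adjusted p = 0.0503), -0.33 in MYO5B(G519R) (adjusted p = 0.109) and -0.77 with Compound-1 (adjusted p = 0.0146). Only the last passed the threshold, and a count over the whole gene includes exons that recombination may leave in place. Libraries held 27804968 to 40101729 counted reads, and 3 reads in a library correspond to 0.0737 to 0.111 CPM. Control 1 stood apart from the other controls, with 6.41% of its reads on mitochondrial genes against 9.07% to 10.4%, and a normalization factor of 1.00 against 0.845 to 0.879. The mitochondrial share was 3.79% to 6.63% in the other groups, and its part in the results was not tested. Values without control 1 are given where it turned a member's call or direction in either model. Over all genes, 7474 passed the threshold in MYO5BΔIEC without control 1 and 4910 with it, and 8146 and 4778 in MYO5B(G519R).

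Fold changes against control also moved with gene length across all genes with a mean of at least 1 CPM. In MYO5BΔIEC the median log2 fold change was -0.78 over 997 genes of up to 1000 bases and 0.14 over 6834 genes longer than 4000 bases. In MYO5B(G519R) these medians were -0.67 and 0.11. Gip, Sct and Sst are members of up to 1000 bases, and Tph1 alone exceeds 4000 bases. Where a fit with this trend removed turned a member's direction or call, its value is given beside the result. For single genes outside the members, no value from this fit is given.

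All 10 members were detected in all 16 cultures, from 129 reads for Neurod1 to 25721 for Chgb. Per transcript length, as FPKM, the fragments per transcript length and library size, the control level was highest for Cck, the satiety hormone of I cells, at 155 ± 31.1 (SD, n = 4). The incretin hormone Gip followed at 116 ± 32.7, proglucagon (Gcg) at 112 ± 23.1 and Chgb at 106 ± 16.4, and each of these neighbours overlapped the next in its range. A step without overlap separated Chgb from somatostatin (Sst, 20.4 ± 9.60), Chga (16.3 ± 7.21) and secretin (Sct, 14.0 ± 4.91), and a second one separated Sct from Neurog3 (5.23 ± 0.644), Tph1 (3.93 ± 1.75) and Neurod1 (3.44 ± 1.31). In both tamoxifen-induced groups without the compound, Chga had moved above Sst to the fifth level, and in MYO5B(G519R) it no longer overlapped Sst. Enteroids are cell mixtures, so fewer or more enteroendocrine cells and less or more RNA per cell cannot be told apart in any of these levels.

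The defining genes of pancreatic islet cells, which share much of this program, were at or near 0, with Ins1, Ins2 and Mafa summing to at most 0.614 CPM in any culture. Fibroblast markers summed to at most 0.956 CPM. Both sources were therefore almost unread in every culture.

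The start regions of the members are shown because several hold letters of a cyclic AMP response element (CRE), the site of CREB-type factors. These letters were whole in some and partial in others, and lay close to the RefSeq start. Windows of 250 bases before the start were taken from RefSeq (GRCm38.p6) for all 10 members, 11 windows in all since Tph1 has 2 starts, and were searched on both strands. The whole element TGACGTCA was found in Chgb and Sst, and in 1.55% of 32851 windows of all genes. The GENCODE annotation begins both of these genes upstream of the RefSeq starts used here. Its exons of the same gene cover all 250 bases of the Chgb window and 114 bases of the Sst window. Both whole elements lie within those exons, so they are upstream only of the RefSeq starts. Its first letters TGACG, which every whole element also contains, were found in Chga, Chgb, Tph1, Cck and Sst, and in 17.8% of all windows. Stretches of 30 bases around 1 match in each follow, 5′ to 3′ on the strand of the gene, with the match in capitals; in Cck the match is on the opposite strand and reads CGTCA.
Chga: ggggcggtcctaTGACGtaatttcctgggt
Chgb: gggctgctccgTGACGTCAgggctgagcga
Tph1: cattggccgttcTGACGatgcgcttctcct
Cck: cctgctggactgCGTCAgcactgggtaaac
Sst: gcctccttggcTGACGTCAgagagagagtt
The stretches lie at chr12:102554885-102554914 (plus strand) for Chga, chr2:132781559-132781588 (plus) for Chgb, chr7:46667407-46667436 (minus) for the second start of Tph1, chr9:121495724-121495753 (minus) for Cck and chr16:23890874-23890903 (minus) for Sst. Counted back from the base before the start as -1, the matches begin at -44, -72, -47, -47 and -48. A match in letters is a description of the sequence and not a measured binding site.

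In MYO5B(G519R), Chga and Gcg were the members called against control, in opposite directions, so their whole windows are printed. Both calls depended on the fit, as given below. In MYO5BΔIEC Gcg was not called (log2 fold change 0.05). Capitals mark the CRE letters and the E-box forms searched, CAGCTG and CAGATG. E-boxes are hexamers bound by basic helix-loop-helix factors such as NEUROG3 and NEUROD1, and other forms were not searched or marked.
Chga: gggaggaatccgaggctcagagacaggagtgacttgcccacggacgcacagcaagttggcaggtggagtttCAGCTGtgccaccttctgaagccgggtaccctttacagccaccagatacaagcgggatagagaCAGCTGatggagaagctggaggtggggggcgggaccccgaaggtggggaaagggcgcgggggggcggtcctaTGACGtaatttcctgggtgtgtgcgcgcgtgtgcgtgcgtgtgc
Gcg: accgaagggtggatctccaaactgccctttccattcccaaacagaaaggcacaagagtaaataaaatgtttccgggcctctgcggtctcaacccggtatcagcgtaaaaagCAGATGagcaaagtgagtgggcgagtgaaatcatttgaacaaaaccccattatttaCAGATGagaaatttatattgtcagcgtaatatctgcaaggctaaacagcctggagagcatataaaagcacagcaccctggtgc
The Chga window (chr12:102554691-102554940, plus strand) held CAGCTG at -179 and -116, and the Gcg window (chr2:62483654-62483903, minus strand) held CAGATG at -139 and -83. CAGCTG was present for Chga, Neurog3, Gip and Sct and in 13.0% of all windows, and CAGATG for Cck, Gcg and Sct and in 14.4%. The TATA box letters TATAAA occurred for Gcg and Sct (12.4% of all windows), and the GC box letters GGGCGG for Chga, Chgb, Neurod1, Tph1 and Sct (32.7%).

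The clearest change among the members was a higher level of Chga, encoding chromogranin A (chr12:102554969-102565028, plus strand). Chga was at 74.97, 31.5, 40.9 and 36.8 CPM in controls 1 to 4. It was at 70.4, 135, 92.3 and 136 CPM in MYO5BΔIEC and at 88.4, 73.8, 82.8 and 71.0 CPM in MYO5B(G519R). Control 1 was the highest control, and it alone reached into the range of either induced group; the other 3 controls lay below every culture of both. Chga rose 2.37-fold in MYO5BΔIEC (log2 fold change 1.24, SE 0.29, adjusted p = 0.0116, edgeR). It rose 1.71-fold in MYO5B(G519R) (log2 fold change 0.78, SE 0.25, adjusted p = 0.0412).

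The call in MYO5BΔIEC stood without any 1 culture, with log2 fold changes of 1.10 to 1.58. The call in MYO5B(G519R) stood without control 1 (log2 fold change 1.15, adjusted p = 7.31e-05) and was lost without any 1 of the other 7 cultures (0.63 to 0.83, adjusted p from 0.0600 to 0.110). It was also lost when all 4 groups shared 1 estimate of spread (0.78, adjusted p = 0.119). With the length trend removed, the values were 1.32 (adjusted p = 0.0111) and 0.83 (adjusted p = 0.0421).

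Chgb, encoding chromogranin B (chr2:132781278-132795079, plus strand), was the most abundant member in CPM. It was at 322, 232, 316 and 328 CPM in controls, with control 2 lowest, and at 291, 614, 433 and 598 CPM in MYO5BΔIEC. In MYO5B(G519R) it was at 393, 349, 451 and 293 CPM. MYO5BΔIEC 1 lay within the control range and the other 3 cultures lay above it. Chgb rose 1.63-fold in MYO5BΔIEC (log2 fold change 0.70, SE 0.24, adjusted p = 0.0485). In MYO5B(G519R) its log2 fold change was 0.31 (SE 0.17, adjusted p = 0.201), with a 95% interval of -0.02 to 0.64. The MYO5BΔIEC call stood without control 1 or MYO5BΔIEC 1 and was lost without any 1 of the other 6 cultures (0.56 to 0.75, adjusted p from 0.0704 to 0.144). It was lost as well when all 4 groups were fitted together (0.69, adjusted p = 0.120) and in limma on log2(FPKM + 1) (adjusted p = 0.0780).

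**Figure D1:**
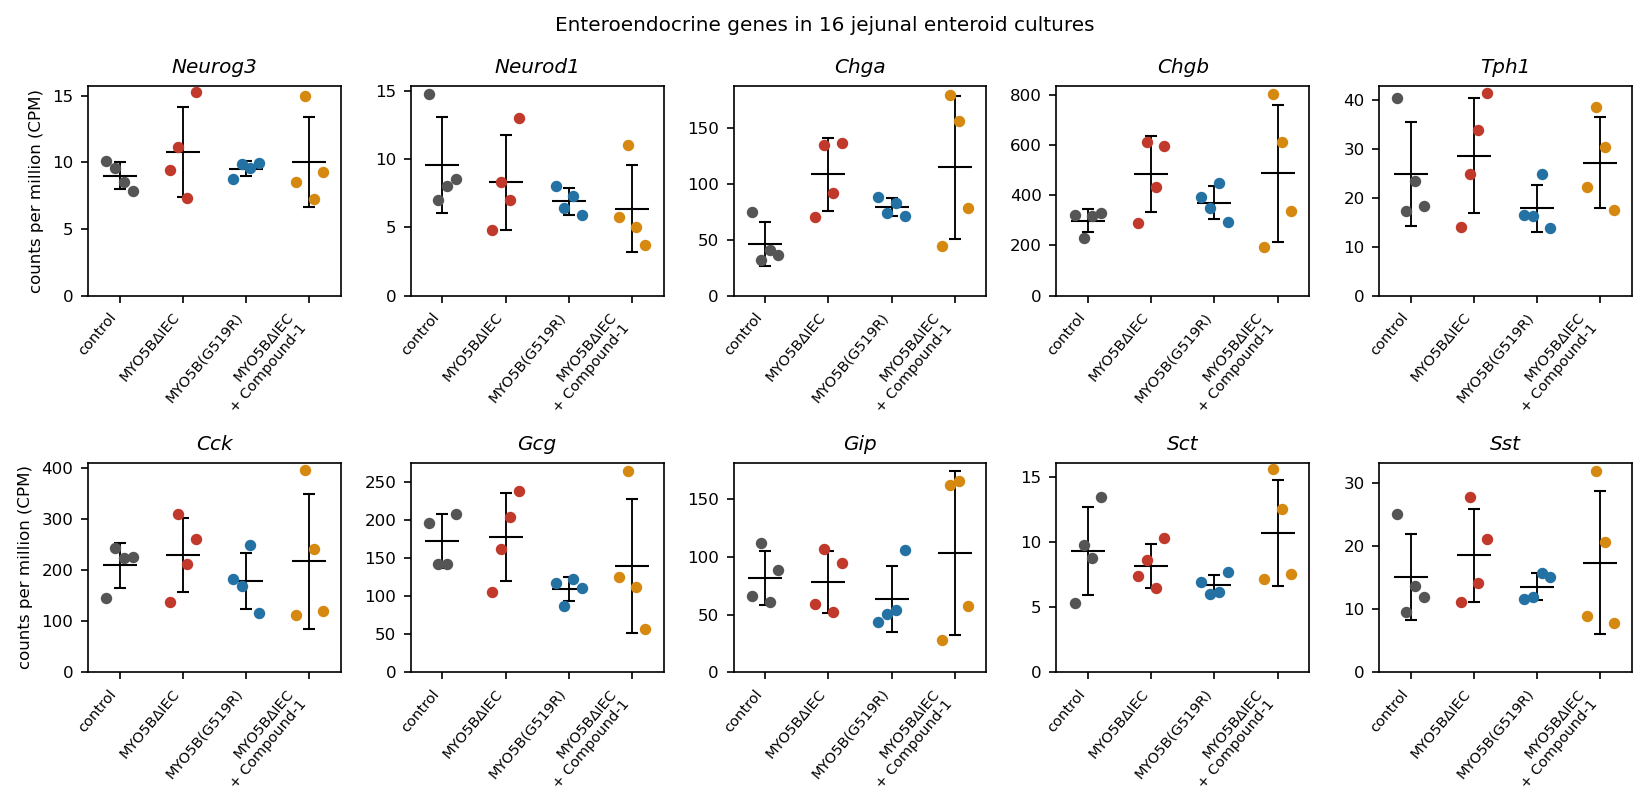
Levels of the 10 enteroendocrine genes in normalized counts (CPM, vertical axes from 0) in each of 16 cultures, grouped as control, MYO5BΔIEC, MYO5B(G519R) and MYO5BΔIEC with Compound-1. Points are cultures in order of replicate number and bars are the mean ± SD (n = 4); Chga is at 31.5 to 74.97 CPM in controls and at 70.4 to 136 CPM in MYO5BΔIEC, and all 10 members of MYO5BΔIEC overlap the controls.

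The lineage transcription factors did not pass the test in either model. Neurog3 was the least variable member among controls, at 10.1, 9.54, 8.49 and 7.86 CPM. It was at 9.44, 11.1, 7.33 and 15.3 CPM in MYO5BΔIEC and at 8.72, 9.89, 9.55 and 9.96 CPM in MYO5B(G519R), so that both groups overlapped the controls. Its log2 fold changes were 0.27 (95% interval -0.18 to 0.71) and 0.08 (-0.20 to 0.36).
Neurod1 was at 14.8, 7.05, 8.01 and 8.56 CPM in controls, again highest in control 1. It was at 4.79, 8.36, 7.05 and 13.1 CPM in MYO5BΔIEC and at 8.03, 6.39, 7.32 and 5.88 CPM in MYO5B(G519R). Its log2 fold changes were -0.20 (-0.83 to 0.43, adjusted p = 0.685) and -0.48 (-0.95 to 0.00, adjusted p = 0.175). Without control 1 the MYO5BΔIEC value was 0.08, so that its direction rested on that culture. The MYO5B(G519R) value was -0.60 to -0.16 when any 1 culture was left out.

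Among the hormones, only Gcg (chr2:62474530-62483650, minus strand), the precursor of the glucagon-like peptides of L cells, passed the test against control. It was at 196, 141, 142 and 208 CPM in controls and at 116, 86.7, 122 and 111 CPM in MYO5B(G519R). The groups did not overlap. Gcg fell by 0.66 on the log2 scale in MYO5B(G519R) (SE 0.17, adjusted p = 0.0179). In MYO5BΔIEC it was at 105, 161, 204 and 238 CPM, spanning the control range, with a log2 fold change of 0.05 (95% interval -0.42 to 0.52). The MYO5B(G519R) call was lost without control 4 (-0.56, adjusted p = 0.0539) or MYO5B(G519R) 2 (-0.56, adjusted p = 0.0570). It was also lost with the length trend removed (-0.39, adjusted p = 0.199) and with all 4 groups fitted together (-0.66, adjusted p = 0.163).

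Cck was at 145, 243, 223 and 224 CPM in controls, lowest in control 1. It was at 138, 309, 211 and 260.5 CPM in MYO5BΔIEC and at 182, 168, 249 and 116 CPM in MYO5B(G519R). Both induced groups spanned the control range, with log2 fold changes of 0.14 (95% interval -0.34 to 0.63) and -0.22 (-0.68 to 0.24). The latter was 0.17 with the length trend removed.
Gip, the incretin of K cells, was at 66.2, 112, 60.6 and 88.8 CPM in controls. It was at 58.8, 107, 51.8 and 94.6 CPM in MYO5BΔIEC and at 43.4, 50.2, 54.2 and 106 CPM in MYO5B(G519R). In MYO5B(G519R) 3 cultures lay below every control and the fourth lay near the highest, and its log2 fold change of -0.37 (-0.94 to 0.20) was 0.19 with the length trend removed. Without that last culture, MYO5B(G519R) 4, it was -0.73 (adjusted p = 0.0417). In MYO5BΔIEC the value of Gip was -0.06, and 0.60 with the trend removed.

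Secretin, the hormone that drives pancreatic bicarbonate, and somatostatin, the inhibitor of other gut hormones, showed no change that passed the test. Sct was at 5.30, 9.81, 8.78 and 13.5 CPM in controls, at 7.37, 8.60, 6.44 and 10.3 CPM in MYO5BΔIEC and at 6.96, 6.04, 6.18 and 7.69 CPM in MYO5B(G519R). In MYO5B(G519R), Sct had a log2 fold change of -0.47 (adjusted p = 0.196), which was -0.64 (adjusted p = 0.0139) without control 1, the lowest control, and 0.19 with the length trend removed. Its value in MYO5BΔIEC was -0.18, and 0.57 with that trend removed, so that its direction depended on the processing in both. Sst was at 25.1, 9.61, 13.7 and 11.9 CPM in controls, at 11.2, 27.76, 14.2 and 21.2 CPM in MYO5BΔIEC and at 11.6, 11.9, 15.8 and 15.1 CPM in MYO5B(G519R). Its log2 fold changes were 0.31 (95% interval -0.35 to 0.98) and -0.15 (-0.69 to 0.40), and the latter was 0.28 with the length trend removed and 0.24 without control 1.

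Tph1, the rate-limiting enzyme of serotonin synthesis in enterochromaffin cells, was at 40.3, 17.2, 23.4 and 18.3 CPM in controls. It was at 14.1, 24.9, 33.8 and 41.4 CPM in MYO5BΔIEC and at 16.5, 16.3, 24.8 and 13.9 CPM in MYO5B(G519R). All groups overlapped. Its log2 fold changes were 0.21 (95% interval -0.46 to 0.88) and -0.47 (-1.03 to 0.09). The latter was -0.68 to -0.10 when any 1 culture was left out.

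In MYO5BΔIEC, 2 of the 10 members were higher than control and 0 were lower, where 27.4% of the 17951 genes tested were called in either direction, 13.5% higher and 13.8% lower. In MYO5B(G519R), 1 member was higher and 1 lower, where 26.8% of 17829 genes were called, 13.1% higher and 13.7% lower. A share of members called that lies near or below the background is not a result about the members. Members without overlap between groups numbered 0 in MYO5BΔIEC and 1 in MYO5B(G519R), against 26.9% and 27.4% of all genes. The median log2 fold change of the members was 0.17 in MYO5BΔIEC, with 7 above 0, and -0.30 in MYO5B(G519R), with 3 above 0; over all genes the medians were -0.01 and -0.05. With the length trend removed, the members' medians became 0.57 and 0.19, so that the sign in MYO5B(G519R) turned. These comparisons and the one of Compound-1 with control share the same 4 control cultures.

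**Figure D2:**
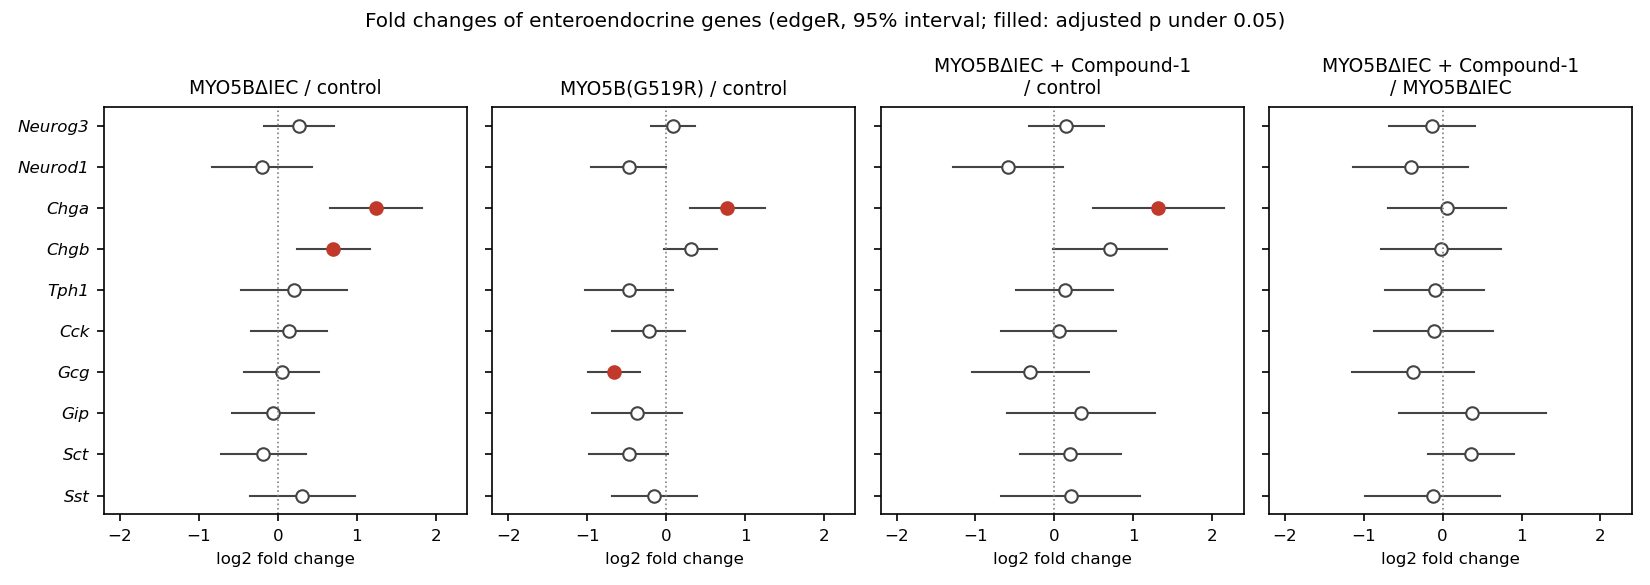
Log2 fold changes (horizontal axes) of the 10 members in 4 comparisons, from edgeR, with bars for the 95% interval and filled points for an adjusted p under 0.05. Chga is to the right of 0 in all 3 comparisons with control (1.24, 0.78 and 1.32), Gcg is filled only for MYO5B(G519R) (-0.66), and no point is filled for Compound-1 against vehicle.

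Between the models, all 10 members were lower in MYO5B(G519R) than in MYO5BΔIEC, with a median log2 difference of -0.37 against -0.01 over all genes. edgeR called 0 of the 10 and 1 of the 17943 genes tested (0.00557%), while 3 members and 772 genes had an unadjusted p under 0.05. These members were Gcg (-0.70, 95% interval -1.12 to -0.28), Tph1 (-0.67, -1.25 to -0.10) and Chga (-0.46, -0.85 to -0.08), each at an adjusted p of 0.838 in edgeR. The fits by DESeq2 and limma called 0 members as well. The difference between the models was therefore not shown for any single member. A shared direction was also seen in gene lists described below. Lower in MYO5B(G519R) were 12 of 12 enterocyte genes (median -0.35), 23 of 24 granule genes (median -0.36) and 6 of 6 Paneth genes. Higher were 7 of 7 proliferation genes, 5 of 6 stem cell genes and 5 of 7 goblet genes.

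No member passed the test between Compound-1 and vehicle in MYO5BΔIEC. edgeR called 0 of 18037 genes (0%), with 1355 genes and 0 members at an unadjusted p under 0.05, and DESeq2 called 91 genes and 0 members. Chga was at 44.3, 180.1, 157 and 78.7 CPM with Compound-1, against 70.4 to 136 CPM with vehicle. Its log2 difference was 0.05 with a 95% interval of -0.69 to 0.80. Chgb was at 196, 806, 614 and 337 CPM, with a log2 difference of -0.02 (-0.78 to 0.74). The spread within the Compound-1 group exceeded its distance from vehicle for both granins.
The other members had log2 differences from -0.41 for Neurod1 (-1.14 to 0.33) to 0.37 for Gip (-0.56 to 1.30). Gip was at 28.0, 162, 166 and 57.4 CPM with Compound-1 and Gcg at 125, 264, 111 and 56.9 CPM, the largest and next largest ratios of highest to lowest culture of any member in any group. The 4 Compound-1 cultures had Neurod1 at 5.80, 11.03, 5.06 and 3.68 CPM and Neurog3 at 8.55, 14.9, 7.27 and 9.30 CPM. They had Tph1 at 22.1, 38.6, 30.4 and 17.5 CPM and Cck at 113, 395, 241 and 119 CPM. For the remaining hormones they had Sct at 7.17, 15.6, 12.6 and 7.56 CPM and Sst at 8.95, 32.0, 20.7 and 7.85 CPM. Culture 2 was the highest in each of these, and all 10 members overlapped vehicle. The median of the 10 log2 differences was -0.11, against 0.00 over all genes.

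Against control, Compound-1-treated MYO5BΔIEC had 1 member called, Chga, where 29.4% of 17937 genes were called, 15.7% higher and 13.7% lower. Chga rose 2.49-fold (log2 fold change 1.32, SE 0.42, adjusted p = 0.0385). Compound-1 culture 1, at 44.3 CPM, lay within the control range. The call stood without control 1 (1.68, adjusted p = 0.0105) or Compound-1 culture 1, and was lost without any 1 of the other 6 cultures (1.02 to 1.46, adjusted p from 0.0518 to 0.108). Chgb had a log2 fold change of 0.71 (95% interval -0.01 to 1.42) and Neurod1 of -0.59 (-1.29 to 0.11), neither past the threshold. Chgb passed without Compound-1 culture 1 (0.97, adjusted p = 0.0332) and Neurod1 without Compound-1 culture 2 (-0.99, adjusted p = 0.0394). Sct had a log2 fold change of 0.20, which was 0.97 (adjusted p = 0.0171) with the length trend removed.

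Chga and Neurod1 mark mature and early enteroendocrine cells, and their ratio was examined after their values had been seen, so it is given without a test. The FPKM ratio of Chga to Neurod1 was 4.26 to 5.06 in the controls. With Compound-1 it was 7.56 to 30.7, and the models without the compound held 10.3 to 15.996 (MYO5BΔIEC) and 10.9 to 11.9 (MYO5B(G519R)). No culture of an induced group overlapped the controls, and control 1, which was high in both genes, had a ratio of 5.02, inside the range of the other controls. Of all genes tested, 6.74% in MYO5BΔIEC, 25.0% in MYO5B(G519R) and 12.7% with Compound-1 had a ratio to Neurod1 above every control.

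The ratio of Chga to Sst was likewise above every control in all 3 groups, with 0.782 to 0.857 in controls, 1.29 to 2.62 with Compound-1, 1.27 to 1.7001 for MYO5BΔIEC and 1.23 to 2.00 for MYO5B(G519R). Chga to Tph1 was 3.92 to 4.51 in controls, 6.11 to 12.1 in MYO5BΔIEC and 7.47 to 12.01 in MYO5B(G519R), while with Compound-1 it overlapped the controls at 4.48 to 11.53. Of the 45 pairs of members, 8 had ratios without overlap in MYO5BΔIEC, 6 of them with Chga, and 8 in MYO5B(G519R), 4 of them with Chga. With Compound-1 there were 4, of which 2 were with Chga. No share over all genes was computed for ratios other than those to Neurod1, so these counts are a description and not a result about the members. The ratios were not adjusted for the length trend, in which Sst and Gip fall in the class of up to 1000 bases. In MYO5BΔIEC the Chga ratios without overlap were those to Neurod1, Neurog3, Tph1, Gcg, Gip and Sst, all above control. The ratio of Chga to Chgb overlapped between groups, at 0.112 to 0.232 in controls and 0.212 to 0.240 in MYO5BΔIEC.

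**Figure D3:**
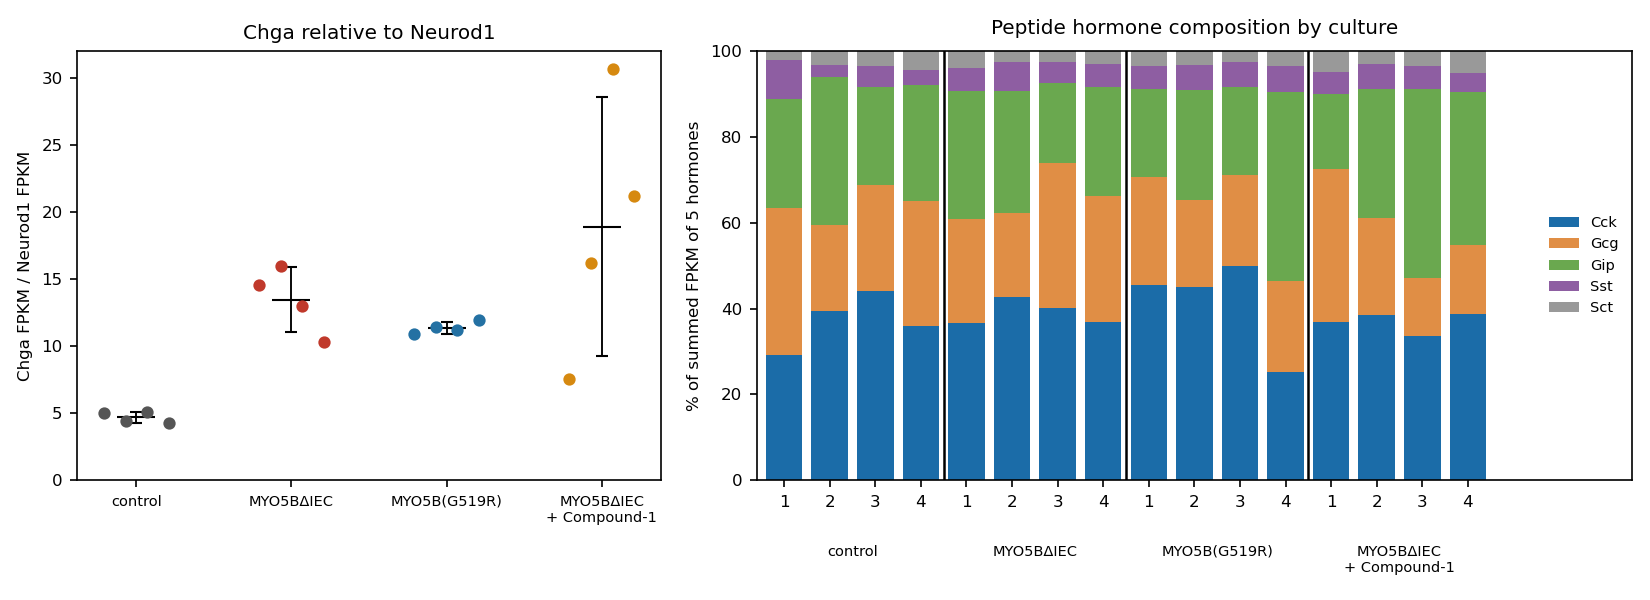
Left, FPKM of Chga divided by FPKM of Neurod1 in each of 16 cultures with the mean ± SD (n = 4), where controls are at 4.26 to 5.06 and every other culture is at 7.56 or above. Right, each of 5 hormones as a percentage of their summed FPKM, 1 bar per culture, where the shares overlap between groups.

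The mix of the 5 peptide hormones overlapped between all groups. Cck made up 37.2% ± 6.35 (SD, n = 4) of their summed FPKM in controls, 39.1% ± 2.96 in MYO5BΔIEC, 41.4% ± 10.9 in MYO5B(G519R) and 36.9% ± 2.36 with Compound-1. The share of Gcg was 27.0% ± 6.16, 26.8% ± 6.19, 22.01% ± 2.25 and 22.002% ± 9.87 in the same order. The share of Gip was 27.4% ± 5.07, 25.5% ± 4.88, 27.7% ± 11.2 and 31.8% ± 11.2. Sst and Sct together made up the small remainder. The summed FPKM of the 5 hormones was 418 ± 47.4 in controls and 445 ± 127 in MYO5BΔIEC, with overlapping ranges, while Chga per hormone FPKM was 0.0242 to 0.0713 in controls and 0.0831 to 0.0913 in MYO5BΔIEC. That last ratio was also not adjusted for the length trend, and all 5 hormone genes are shorter than Chga.

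Within groups, the members tended to be high or low together from culture to culture. In the Compound-1 group, culture 2 was highest for 9 of 10 members. In MYO5BΔIEC, culture 1 was lowest for 7 members, and cultures 2 and 4 held the highest value of all 10 between them. Control 1 was highest for Chga, Neurod1, Neurog3, Tph1 and Sst and lowest for Cck and Sct, so it did not simply hold more or less of every member. The median coefficient of variation over the members was 32.3% in controls, 32.2% in MYO5BΔIEC, 15.1% in MYO5B(G519R) and 55.9% with Compound-1. The Compound-1 group was thus the most variable, with up to 5.92-fold between its cultures.
After centring on group means, the 45 pairs of members had Pearson correlations from 0.0189 to 0.906 over 16 cultures, with a median of 0.606. The closest pairs were Chga with Chgb (0.906) and Chga with Sst (0.893), and the most distant was Tph1 with Sct (0.0189). These points share library depth and culture, and the correlations are given as a description.

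**Figure D4:**
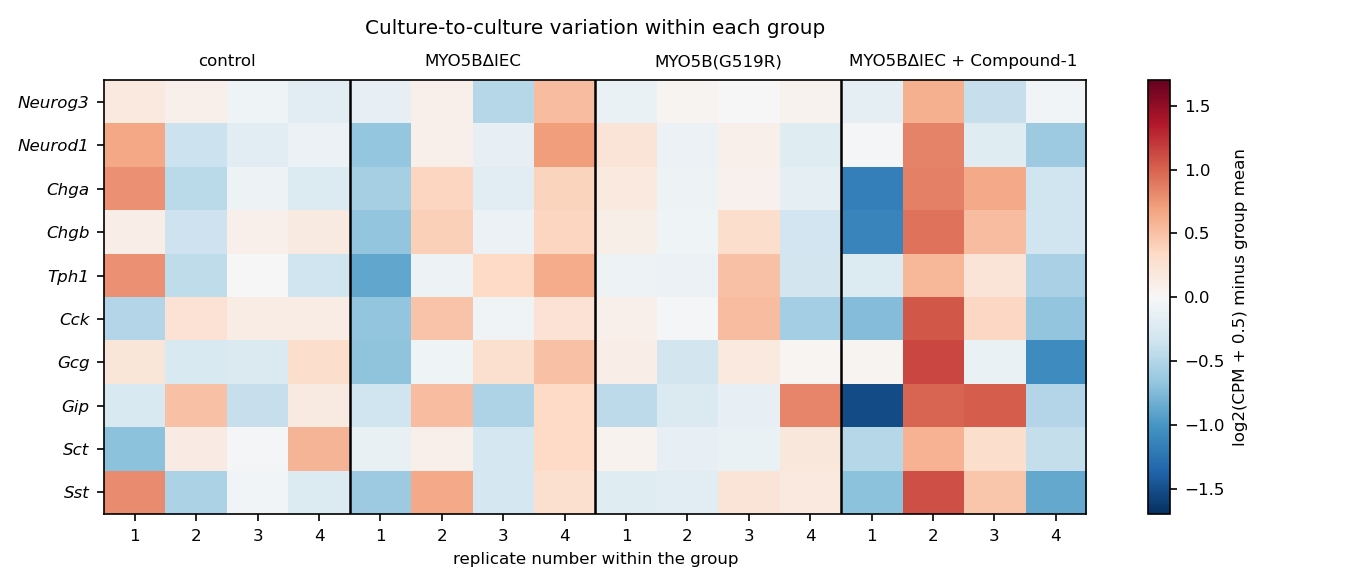
Deviation of each of the 10 members (rows) in each of 16 cultures (columns, by replicate number within the group) from its group mean, in log2(CPM + 0.5), on a colour scale from blue (below) to red (above). Compound-1 culture 2 is above its group mean for all members and MYO5BΔIEC 1 is below for all members.

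The genes whose centred level was most like the sum of Chga and Neurod1, among 13545 genes with a mean of at least 1 CPM, were Tpbg (Pearson r 0.96 and Spearman rho 0.94 over 16 cultures, which share depth and culture), Fev (0.96 and 0.93), Lmx1a (0.94 and 0.84), Gnao1 (0.94 and 0.91) and Pcsk1n (0.94 and 0.95). Without control 1 and Compound-1 culture 2, the cultures farthest from the median of that sum, r was 0.94, 0.92, 0.90, 0.90 and 0.88 in the same order. Fev and Lmx1a are transcription factors known from serotonin-producing cells, Gnao1 encodes an inhibitory G protein subunit, and Pcsk1n encodes proSAAS of secretory granules.

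Around the members, genes of secretory granules and exocytosis were called in 1 direction in MYO5BΔIEC. Of 25 genes in this list 24 were tested, 21 had a log2 fold change above 0, 6 were higher and 0 lower, with a median of 0.60. Over all genes 27.4% were called, 13.5% higher, so the number called in the list is near the background. Pcsk1n, which inhibits the prohormone convertase PCSK1, rose most (log2 fold change 1.51, SE 0.41, adjusted p = 0.0211). It was at 1.63, 0.698, 0.833 and 0.519 CPM in controls and 1.65, 3.72, 1.98 and 3.15 CPM in MYO5BΔIEC, without overlap. Pam, the enzyme that amidates peptide hormones, rose by 1.05 (SE 0.31, adjusted p = 0.0308), and the other called genes were Cpe, Ptprn2, Syt7 and Rimbp2, at 0.83 to 0.91. These genes process peptides, sit in the granule membrane or act in release.
The count depended on single cultures, at 10 without control 1 and at 0 without control 2, 3 or 4 or MYO5BΔIEC 2, at 1 without MYO5BΔIEC 3 and at 2 without MYO5BΔIEC 4. Calls over all genes moved as well, from 4910 of 17951 to 7474 of 17783 without control 1. They were 3385, 2983 and 2970 without control 2, 3 and 4, and 2963, 3974 and 4774 without MYO5BΔIEC 2, 3 and 4. The count in the list was 4 in both limma fits and 2 with the replicate block, where 4589, 4603 and 3647 of all genes were called. It was 7 with the length trend removed, where 4813 of all genes were called. In MYO5B(G519R), 2 of 24 were higher, Pcsk1n (1.24, adjusted p = 0.0305) and Syt7 (0.71, adjusted p = 0.0488), and 0 lower, with a median of 0.29. Without control 1, 10 were higher, and without any 1 of the other 7 cultures 0 or 1 were. Over all genes, 8146 of 17647 were called without control 1, and 2880 to 4426 genes without any 1 of those other cultures. With the length trend removed, 1 gene of the list was higher in MYO5B(G519R), where 4896 of all 17829 genes were called. With Compound-1 against control, Pam and Syt7 were higher and 0 were lower. Pcsk1, Scg2 and Scg5 passed in none of these comparisons.

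**Figure D5:**
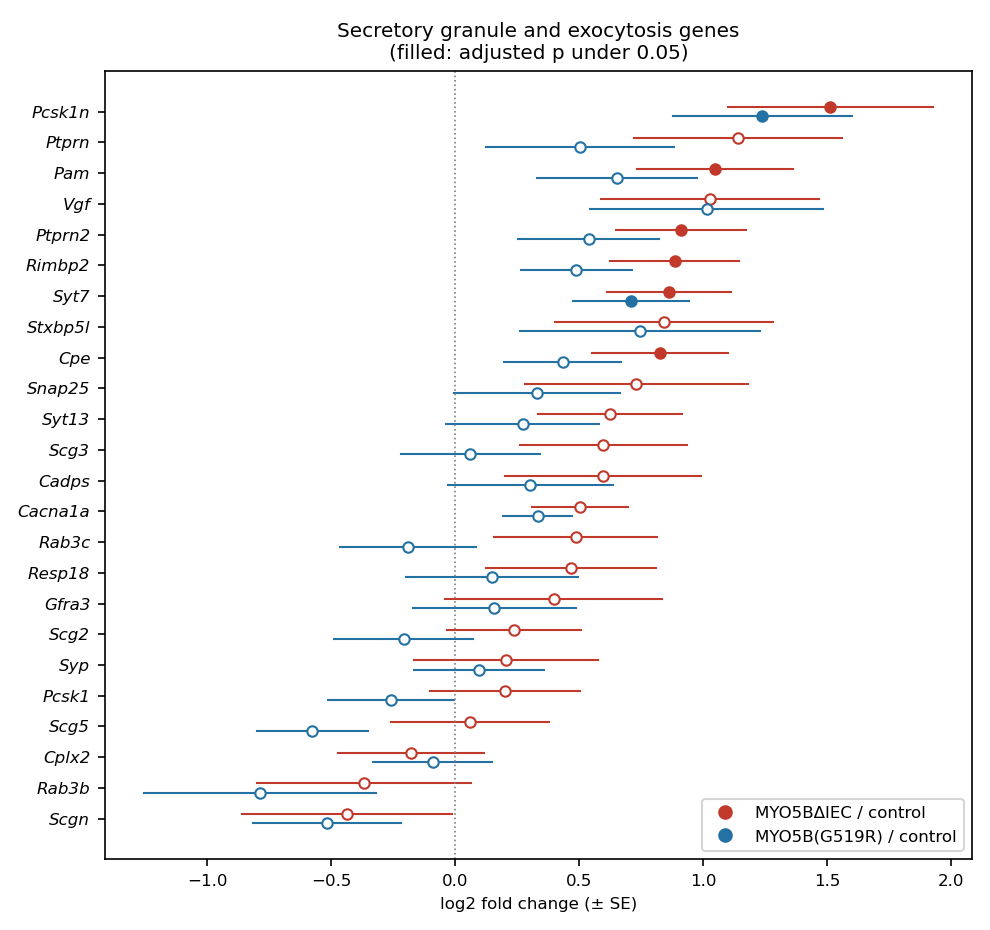
Log2 fold changes ± SE (horizontal axis) of 24 secretory granule and exocytosis genes in MYO5BΔIEC (red) and MYO5B(G519R) (blue) against control, sorted by the value in MYO5BΔIEC, with filled points for an adjusted p under 0.05. Pcsk1n is at the top (1.51 and 1.24), and 21 of 24 red points lie to the right of 0.

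The other transcription factors of the lineage were mostly without a call. Of 26, 2 were higher and 0 lower in MYO5BΔIEC, and 1 was higher and 1 lower in MYO5B(G519R), a smaller part of the list than the 27.4% and 26.8% of all genes called. Foxa1 rose in both (0.51, adjusted p = 0.0241 and 0.67, adjusted p = 0.00643). St18 fell by 0.88 in MYO5B(G519R) (adjusted p = 0.0229), from 3.65 to 5.24 CPM in controls to 1.66 to 2.99 CPM. Egr3, an immediate early factor that lies outside the naming rule, was called in MYO5BΔIEC from a control mean of only 0.0815 CPM. With Compound-1 against control, 3 were higher (Foxa1, Hhex and Egr3) and 1 lower (St18).

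Genes of serotonin synthesis, storage and removal moved in both directions. Of 11 tested, 2 were higher and 4 lower in MYO5BΔIEC, and 1 higher and 3 lower in MYO5B(G519R), where 27.4% and 26.8% of all genes were called. Gch1, the first enzyme of tetrahydrobiopterin synthesis, rose in both (0.73, adjusted p = 0.00556 and 0.67, adjusted p = 0.00490), and Slc18a1, the vesicular amine transporter, rose in MYO5BΔIEC (0.71, adjusted p = 0.0192). Slc6a4, the serotonin reuptake transporter, fell in both by 0.79 (adjusted p = 0.0195) and 1.15 (adjusted p = 0.00775) on the log2 scale. Slc6a4 was at 26.4 to 33.4 CPM in controls, 10.4 to 21.8 in MYO5BΔIEC and 7.73 to 19.6 in MYO5B(G519R), without overlap. The enzyme Maoa, which degrades serotonin, fell by 0.69 in MYO5BΔIEC and by 0.94 in MYO5B(G519R). The irritant channel Trpa1 fell by 1.14 in MYO5B(G519R) (adjusted p = 0.0227). Reuptake and degradation are largely functions of enterocytes, so these genes are not specific to enteroendocrine cells. With Compound-1 against control, 2 were higher and 3 lower.

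Of 15 further gut hormones and peptides, 9 were tested. Fgf15, a bile acid-responsive hormone of enterocytes and not of enteroendocrine cells, rose in MYO5BΔIEC (2.61, adjusted p = 0.0198), in MYO5B(G519R) (2.29, adjusted p = 0.0337) and with Compound-1 (2.83, adjusted p = 0.0173), from a control mean of 0.619 CPM. Tac1, the tachykinin precursor of enterochromaffin cells, fell by 0.74 in MYO5B(G519R) (adjusted p = 0.0430), from 40.3 to 79.8 CPM in controls to 22.2 to 37.9 CPM. The other 7 tested, among them ghrelin, neurotensin and peptide YY, passed in none of the comparisons with control. Ppy had 0 reads in all 16 cultures, which allows up to 0.0737 to 0.111 CPM per culture, for counting error only. Of the nutrient receptors of these cells, 11 were tested in MYO5BΔIEC, where only Glp1r was called (0.0185 CPM in controls and 0.403 CPM), 10 in MYO5B(G519R), where none was called, and 11 with Compound-1, where only Casr was called.

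Markers of other epithelial lineages moved in the same cultures. In MYO5BΔIEC and MYO5B(G519R), respectively, calls were 3 higher and 0 lower, and 2 higher and 1 lower, of 12 enterocyte genes. For 7 goblet genes they were 2 higher and 1 lower, and 2 higher and 2 lower, and for 6 Paneth genes 2 lower in each. For 6 stem cell genes they were 1 higher and 1 lower in each, for 7 proliferation genes 4 lower and 3 lower, and for 5 tested tuft genes 0. The summed stem cell list was 2344 to 6396 CPM in controls, 977 to 2135 in MYO5BΔIEC and 1329 to 2632 in MYO5B(G519R). The goblet list was 1428 to 1745, 1915 to 2381 and 1922 to 2343 CPM in the same order. Olfm4 was the largest part of the stem sum in controls, at a mean of 3744 CPM against 777 and 1212 CPM in the models. Of the 6 stem genes, 4 lay above 0 in each model, with median log2 fold changes of 0.09 and 0.30. Fcgbp rose from 462 CPM to 1229 and 1239 CPM, while 3 of 7 goblet genes lay above 0 in MYO5BΔIEC and 4 in MYO5B(G519R). Among neural markers, Ret (1.71 and 1.28) and S100b were higher in both, while Elavl4, Uchl1, Sox10 and Gfap were too low to test. The immune marker Cd68 was higher in MYO5BΔIEC (1.09, adjusted p = 0.0332), with Ptprc, Cd3e, Cd79a and Adgre1 too low to test and Lyz2 at -0.31 (adjusted p = 0.786). In MYO5B(G519R) Lyz2 was at -1.32 (adjusted p = 0.173), and Col1a1 was higher at no more than 0.463 CPM in any of its cultures. The part of these shifts in the members' values was not tested.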

How the data were processed

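Poly-A RNA from 16 cultures (4 groups of 4) was sequenced by the authors. They deposited raw read counts per gene and FPKM values per gene; the submitters' processing notes name STAR 2.5, HTSeq 0.6.1, TopHat and DESeq2 with GRCm38 (mm10), and strandedness is not given in the sources used here. Counts were tested per pair of groups with edgeR 4.0.16 (R 4.3.3; TMM normalization, quasi-likelihood F test) keeping genes that reached 10 counts in 2 or more libraries of the pair; p-values were Benjamini-Hochberg adjusted and called under 0.05. CPM values used TMM library sizes, and FPKM served for levels between genes and ratios. Intervals are nominal 95% intervals from the SE of the edgeR fit by a normal approximation. They are narrower than the F test allows with few cultures, so an interval can exclude 0 where the unadjusted p is over 0.05. Depth was 27804968 to 40101729 counts, and floors and intervals on counts cover counting error only.

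Alternatives were DESeq2 1.42.0, its size factors, other filters, all groups in 1 fit, a replicate block, removal of the gene length trend, limma 3.58.1 on log2(FPKM + 1) and log2(FPKM + 0.1), and leaving out each culture. On simulated data, edgeR recovered 46% of 2-fold and 95% of 4-fold changes for MYO5BΔIEC against control (17951 genes). There, 100 genes were changed at each fold, while 4910 genes were called in the data. The adjustment of p-values depends on that share, so these rates need not hold for the tests reported. Members and gene lists were chosen with earlier results of these data known. All members are named; from each list, the 2 highest and 2 lowest called genes with a mean of at least 1 CPM are named, and other called genes were named after their values were seen. For likeness, the 5 genes with the highest r are named. p-values measure the spread between cultures.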

Additional observations from a re-analysis of the deposited data

Results flagged for a closer look

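In the controls, Chgb in culture 2 stood apart from the other 3 cultures, at 232 CPM against 316 to 328 CPM. Its gap to the nearest culture was 0.872 of the range of the group, above Dixon's 95% critical value for 4 samples. Of 40 sets of 4 cultures tested (10 members in 4 groups), 1 was found, where chance gives about 2, or 1 in 20. Without this culture, Chgb in MYO5BΔIEC had a log2 fold change of 0.60 (adjusted p = 0.129, edgeR).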

How the results depend on the processing

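Of the members called against control, MYO5BΔIEC had 2, which became 1 with all groups in 1 fit, with the replicate block and in both limma fits, and 1 to 2 without single cultures. MYO5B(G519R) had 2, which became 0 with all groups in 1 fit, 1 with the length trend removed, and 0 to 3 without single cultures. Compound-1 against control had 1, which became 0 with the replicate block and in both limma fits, 2 with the length trend removed, and 0 to 2 without single cultures. Calls over all genes without single cultures ranged from 2963 to 7474, 2880 to 8146 and 2957 to 7459 in the same order. The cause was not tested. The other comparisons stayed at 0 members under every alternative run.

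With the length trend removed, directions turned for Gip (0.60) and Sct (0.57) in MYO5BΔIEC, and for Cck (0.17), Gip (0.19), Sct (0.19) and Sst (0.28) in MYO5B(G519R). Compound-1 against vehicle turned for Chga with the replicate block (-0.10) and in limma (-0.078 and -0.085 with the larger and smaller pseudocount), and for Chgb with all groups in 1 fit (0.011). Compound-1 against control turned for Cck with the block (-0.12) and in limma (-0.10 with both pseudocounts).

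Leaving out single cultures turned the sign of values near 0. In MYO5BΔIEC the ranges were -0.50 to 0.084 for Neurod1, -0.023 to 0.54 for Tph1, -0.039 to 0.32 for Cck, -0.12 to 0.23 for Gcg, -0.26 to 0.13 for Gip and -0.38 to 0.046 for Sct. In MYO5B(G519R) the range was -0.31 to 0.24 for Sst. For Compound-1 against vehicle they were -0.26 to 0.32 for Chga, -0.38 to 0.24 for Chgb, -0.40 to 0.070 for Neurog3, -0.33 to 0.13 for Tph1, -0.58 to 0.097 for Cck and -0.61 to 0.14 for Sst. For Compound-1 against control they were -0.10 to 0.28 for Neurog3, -0.087 to 0.49 for Tph1, -0.41 to 0.27 for Cck, -0.031 to 0.43 for Sct and -0.27 to 0.59 for Sst. Between the models they were -0.46 to 0.034 for Neurod1 and -0.32 to 0.029 for Neurog3.

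The correlation of same-numbered cultures was not over 0.1 in every pair of any comparison, so the replicate numbers were not taken as pairs. It was -0.225 to 0.104 for MYO5BΔIEC and control, -0.219 to 0.264 for MYO5B(G519R) and control, -0.175 to 0.116 for Compound-1 and control and -0.157 to 0.0956 for Compound-1 and vehicle. Between the models it was above 0 in all 4 pairs (0.143, 0.0858, 0.513 and 0.599), and there 0 members were called with or without the block. With the replicate block, 3647 genes were called in MYO5BΔIEC against 4910 without it, 3691 against 4778 in MYO5B(G519R), and 4401 against 5275 with Compound-1.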

Other observations

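The Notch pathway, which holds back secretory fate in crypts, had 8 tested genes in the comparisons of both models with control. Notch1, Notch2 and the ligand Jag1 were called higher and 0 were called lower in each. Of all genes, 27.4% and 26.8% were called, 13.5% and 13.1% of all genes being higher. The list as a whole did not move in 1 direction. In MYO5BΔIEC only these 3 genes had a log2 fold change above 0, and the other 5 lay below (list median -0.05). For MYO5B(G519R), 5 genes lay above 0 and 3 below (list median 0.08). Jag1 rose by a log2 fold change of 1.49 (adjusted p = 0.00293) in MYO5BΔIEC and 1.00 in MYO5B(G519R), and Notch2 by 1.22 (adjusted p = 0.00832) and 1.17, by edgeR. The summed list was at 195.9 to 267 CPM in controls, 259.5 to 289 CPM in MYO5BΔIEC and 259.8 to 278 CPM in MYO5B(G519R). These values are given with no explanation.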
